A study of Mus musculus with 18 samples.

Results

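The endoplasmic reticulum (ER) is where secreted and membrane proteins are folded, joined by disulfide bonds and checked before export. The genes described here are 38 that carry out this work or respond when it fails, taken by gene symbol from the array annotation, and all 38 of 38 had a usable probe set and passed the filter on low values, of 14003 genes tested and 19937 with a usable probe set. By role they were 9 luminal chaperones and co-factors, 2 lectin chaperones, 6 disulfide isomerases and reductases, 6 sensors and transcription factors, 4 targets of the integrated stress response, 9 genes of ER-associated degradation and 2 subunits of the translocon.

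Cells came from the colon lamina propria of BALB/c mice, 8 weeks old. From a gate of MHC+CD11chigh cells, which holds dendritic cells and other antigen-presenting cells, the populations CD103+CD11b-, CD103+CD11b+ and CD103-CD11b+ were sorted. Each was taken from mice with no treatment named in their titles, called untreated here, and from mice on 2% dextran sulfate sodium (DSS), a sulfated sugar polymer used to inflame the mouse colon. The 6 groups had 3 arrays each, 18 in all, made from 5 ng of amplified total RNA. Experiments 1 to 3 gave the untreated arrays and experiments 4 to 6 the DSS arrays, each with 1 array of every subset. No experiment held both conditions, so DSS and experiment cannot be told apart. Nothing in the labels says whether an experiment was 1 mouse or a pool, and p-values measure only the spread between these arrays.

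When unfolded proteins build up in the ER, membrane sensors start the unfolded protein response. IRE1, encoded by Ern1, splices Xbp1 mRNA to make an active factor; PERK, encoded by Eif2ak3, slows translation and favours the factor ATF4; and ATF6 is released from the membrane by cleavage. Together these factors raise chaperones, degradation genes and, through ATF4, amino acid and redox genes. In dendritic cells, the IRE1 and XBP1 branch is known for constant activity in the cDC1 lineage, to which CD103+CD11b- cells belong. The arrays gave levels of Xbp1 mRNA, and its splicing was not measured.

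In untreated arrays the sorted markers followed the labels. Itgae (CD103) averaged 9.37 and 8.84 in untreated CD103+CD11b- and CD103+CD11b+ cells against 6.35 in CD103-CD11b+ cells, on the log2 scale used for every value below. Itgam (CD11b) averaged 5.14, 7.31 and 7.93 in the same order, and Itgax (CD11c) 8.49, 8.94 and 9.22. The cDC1 markers Xcr1, Clec9a, Batf3, Irf8 and Itgae, 5 of 5 tested, had a summed level of 42.0 to 42.6 in untreated CD103+CD11b- arrays, 33.2 to 34.8 in CD103+CD11b+ arrays and 28.3 to 29.9 in CD103-CD11b+ arrays. Macrophage markers ran the other way: the 7 tested of 8 summed to 42.5 to 44.5, 48.3 to 49.5 and 54.9 to 60.3. With DSS, 2 of the 5 cDC1 markers were called higher by limma in CD103-CD11b+ cells, beside 0.0714% of all genes. They were Itgae, which encodes the sort marker CD103, by 1.08 ± 0.13 (adjusted p 0.0010) and Clec9a by 1.40 ± 0.26 (adjusted p 0.0451). The sum was then 32.4 to 33.1 there, nearer to the 42.7 to 43.0 of DSS CD103+CD11b- arrays than in untreated mice. In bulk samples, fewer cells of a type and less RNA per cell cannot be told apart.

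Many of these genes share promoter elements, which are shown because factors of the response are known to bind them. The ER stress element is CCAAT, any 9 bases, then CCACG, and is known to bind NF-Y together with ATF6. The related second element is ATTGG, any base, then CCACG. The ATF4 element (CARE) was searched as TGATGNAA. RefSeq start-site windows of build GRCm38.p6, from 250 bases before to 50 after the start, were found for 33 of the 38 genes and searched on both strands; CCACG on its own lies within both ER stress elements. The first element was found in 9 of 33 genes, Hspa5, Hsp90b1, Calr, Canx, Creld2, Dnajc3, Derl3, Pdia6 and Syvn1, and in 0.119% of 32851 windows of the whole table. The second was found in Dnajb11 and Herpud1, and in 0.0365% of windows. The ATF4 element was found in Asns, Chac1, Trib3 and Herpud1, and in 3.97% of windows. CCACG alone was in 26 of 33 genes and 32.8% of windows, and TGACGTGG, a core element of XBP1 and ATF6 binding, in 0 of 33 genes and 0.676% of windows. The sequences below run 5′ to 3′ on the strand of the gene, with the matched element in capitals. Hspa5 and Dnajc3 show the first element in the forward direction and Calr in reverse; Herpud1 carries both a second ER stress element and an ATF4 element; Chac1, Trib3 and Asns show ATF4 elements. A match describes these letters and is not a measured binding site.
Hspa5, chr2:34772005-34772063, plus strand: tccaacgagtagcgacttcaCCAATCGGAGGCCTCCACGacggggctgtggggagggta
Dnajc3, chr14:118937807-118937865, plus strand: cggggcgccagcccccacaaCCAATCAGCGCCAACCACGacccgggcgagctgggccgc
Calr, chr8:84847055-84847113, minus strand: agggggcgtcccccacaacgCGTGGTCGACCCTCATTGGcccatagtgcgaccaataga
Herpud1, chr8:94386357-94386407, plus strand: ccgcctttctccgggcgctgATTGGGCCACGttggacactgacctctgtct
Herpud1, chr8:94386297-94386344, plus strand: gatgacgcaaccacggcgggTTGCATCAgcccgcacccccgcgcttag
Chac1, chr2:119351029-119351076, plus strand: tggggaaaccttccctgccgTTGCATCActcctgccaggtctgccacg
Trib3, chr2:152344019-152344066, minus strand: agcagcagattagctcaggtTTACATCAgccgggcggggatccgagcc
Asns, chr6:7693205-7693252, minus strand: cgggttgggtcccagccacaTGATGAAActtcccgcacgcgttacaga

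Across the 6 groups, 9 of the 38 genes passed the test between subsets or with DSS and 29 passed it in no comparison. A gene is called where limma's adjusted p, over all 14003 genes, was under 0.05. The 9 were Ern1, Herpud1, Chac1, Dnajc10, Sdf2l1, Sec61b, Pdia5, Dnajc3 and P4hb, and together they gave 22 calls. Single comparisons between subsets called 1.58% to 10.3% of all genes. The share of all genes called in at least 1 comparison was not counted, so 9 of 38 has no background beside it. These 9 genes moved in different directions. Compared with CD103-CD11b+ cells, CD103+CD11b- cells had more Herpud1, Chac1 and Dnajc10 and less Ern1 and Sec61b, untreated and after DSS; Sdf2l1 was lower in untreated cells. Pdia5 was the only gene of the list called with DSS, in CD103+CD11b- cells.

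**Figure D1:**
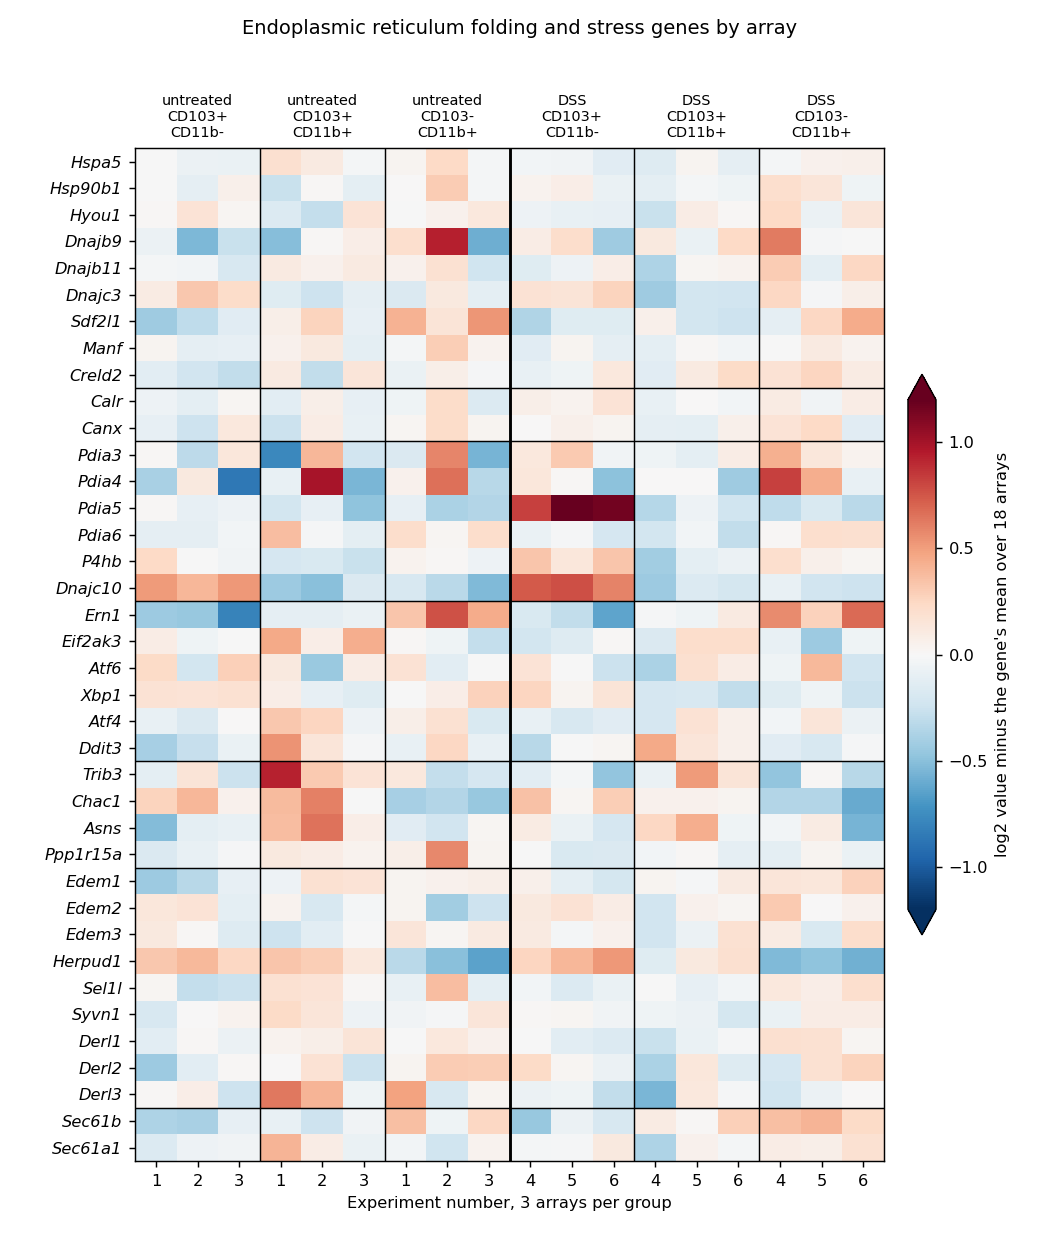
Each row is a gene, ordered by role, and each column an array, labelled with its experiment and grouped by subset and condition; colour is the log2 value minus that gene's mean over the 18 arrays, so colours compare arrays within a gene and not genes with each other. Pdia5 stands out in the 3 DSS CD103+CD11b- arrays, Dnajc10 in all 6 CD103+CD11b- arrays and Ern1 in the 6 CD103-CD11b+ arrays, while most rows stay pale.

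The mean over all 38 genes was nearly level. It was 7.855, 7.855 and 7.856 in the 3 untreated CD103+CD11b- arrays, 7.98, 8.00 and 7.88 in untreated CD103+CD11b+ arrays, and 7.95, 8.02 and 7.855 in untreated CD103-CD11b+ arrays. After DSS it was 7.97, 7.97 and 7.90, then 7.78, 7.94 and 7.90, then 7.98, 7.96 and 7.92 in the same subset order. The largest difference between subsets was -0.10, untreated CD103+CD11b- minus CD103+CD11b+, where the arrays did not overlap. The mean of all genes tested differed by -0.07 in the same comparison, also without overlap, and after repeated quantile normalization the members' difference was -0.0332. The largest with DSS was 0.09, in CD103+CD11b- cells, also without overlap, beside 0.02 for all genes. Pdia5 alone differed by 1.13 there, and the median over the 38 genes differed by 0.07, with overlap between arrays. For the mean over the 38 genes, the SD within groups, pooled over the 6 groups, was 0.06. The mean is a description of the list, with no test, and differences of opposite sign cancel in it.

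Means of single roles differed by more. For the disulfide isomerases and reductases and for the sensors and factors, 1 or 2 genes carried much of the differences broken down here. The 6 disulfide isomerases and reductases averaged 7.76 ± 0.10 (SD, n = 3) in DSS CD103+CD11b- cells against 7.26 ± 0.08 in DSS CD103+CD11b+ and 7.49 ± 0.12 in DSS CD103-CD11b+ cells, and 7.43 ± 0.05 in untreated CD103+CD11b- cells. Without Pdia5 and Dnajc10, the difference of 0.50 between the DSS CD103+ subsets was 0.18 over the other 4 genes. Without Pdia5, the difference of 0.33 with DSS in CD103+CD11b- cells was 0.17 over 5 genes. The 4 integrated stress response targets averaged 7.91 ± 0.21 in untreated CD103+CD11b+ cells against 7.56 ± 0.12 in CD103+CD11b- and 7.50 ± 0.04 in CD103-CD11b+ cells; arrays of the CD103+ subsets overlapped. The mean of the 6 sensors and factors, CD103+CD11b- minus CD103-CD11b+, differed by -0.20 in untreated cells, with no overlap between arrays. Ern1 alone differed by -1.08 there, and the other 5 averaged -0.02.

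**Figure D2:**
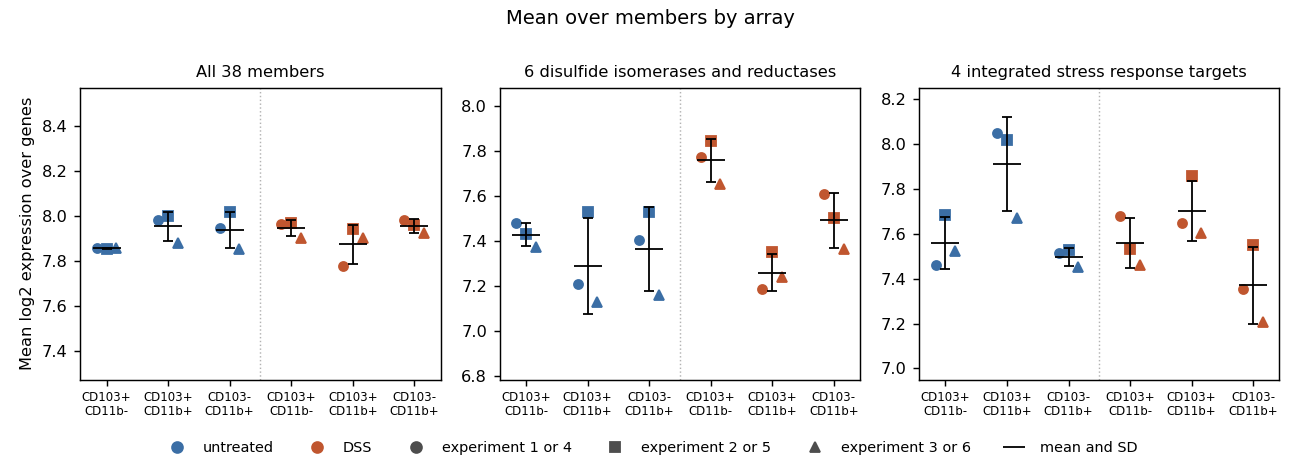
The vertical axis is the mean log2 expression over the named genes, with the same span in each panel; points are arrays, with shape giving the experiment and colour the condition, and bars are the mean and SD of 3 arrays. The mean over 38 genes lies between 7.78 and 8.02 in every array, while the disulfide isomerases are highest in DSS CD103+CD11b- cells and the integrated stress response targets in untreated CD103+CD11b+ cells.

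Between CD103+CD11b- and CD103-CD11b+ cells, 6 of 38 genes were called in untreated mice, 3 higher and 3 lower. Over all genes tested 10.3% were called, 5.01% higher and 5.32% lower. After DSS the same comparison called 6 of 38, 4 higher and 2 lower, against 8.53% of all genes, 4.19% higher and 4.34% lower. The median difference of the 38 was -0.11 untreated and -0.07 after DSS, beside 0.01 and -0.01 for all genes.

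Between CD103+CD11b- and CD103+CD11b+ cells, 1 of 38 genes was called in untreated mice, which was higher, against 6.86% of all genes, 2.76% higher and 4.09% lower. After DSS 4 of 38 were called, all higher, against 5.96% of all genes, 3.56% higher and 2.39% lower. Medians of the 38 were -0.15 untreated and 0.02 after DSS, beside -0.06 and 0.00 for all genes. With the experiment as a block, the untreated count was 3 in place of 1, with Asns and Pdia4 added. It was 2 without untreated CD103+CD11b- and 3 without untreated CD103+CD11b+ of experiment 3. The DSS count was 2 without DSS CD103+CD11b- of experiment 4 or 6 or CD103+CD11b+ of experiment 4.

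Between CD103+CD11b+ and CD103-CD11b+ cells, 3 of 38 genes were called in untreated mice, 2 higher and 1 lower, against 4.11% of all genes, 2.36% higher and 1.75% lower. After DSS 1 of 38 was called, Herpud1, which was higher, against 1.58% of all genes, 0.436% higher and 1.14% lower. Medians of the 38 were -0.01 and -0.13, beside 0.07 and -0.02 for all genes. These 3 comparisons of a condition share arrays, so their counts are not independent.

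Of the sensors, Ern1 (IRE1) differed most and formed steps across the subsets. In untreated mice it measured 7.14, 7.12 and 6.78 in CD103+CD11b- cells of experiments 1, 2 and 3. It measured 7.47, 7.47 and 7.50 in CD103+CD11b+ cells and 7.91, 8.34 and 8.03 in CD103-CD11b+ cells. The 3 untreated groups did not overlap. After DSS the values were 7.39, 7.29 and 6.94, then 7.57, 7.53 and 7.68, then 8.15, 7.85 and 8.25, in the same order of subsets and again without overlap.

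CD103+CD11b- minus CD103-CD11b+ cells, the Ern1 difference was -1.08 ± 0.15 (standard error of the fit, as for each difference below) in untreated mice, with an adjusted p of 6.1e-05. It was -0.88 ± 0.15 after DSS, with an adjusted p of 0.00066. Untreated CD103+CD11b+ cells lay between, at -0.61 ± 0.15 from CD103-CD11b+ cells with an adjusted p of 0.0276. That call was lost in a fit of the 2 groups alone (adjusted p 0.132) and without any of 5 of the 6 arrays compared (adjusted p 0.0503 to 0.139), the exception being CD103-CD11b+ of experiment 1. The other steps, -0.47 untreated and -0.39 after DSS between CD103+CD11b- and CD103+CD11b+ cells and -0.49 after DSS between CD103+CD11b+ and CD103-CD11b+ cells, had adjusted p of 0.0799, 0.197 and 0.152. The summed macrophage markers moved with Ern1, and their part in the result was not tested.

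The other sensors and factors were not called in any comparison. Eif2ak3 (PERK) ran from 6.33 to 7.23 over the 18 arrays, and its largest subset difference was 0.43 ± 0.15, higher in untreated CD103+CD11b+ than CD103-CD11b+ cells, with an adjusted p of 0.134. Atf6 ran from 7.13 to 7.97 with subset differences of at most 0.18. Atf4 ran from 9.09 to 9.63 with differences of at most 0.26.

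Xbp1, the target of IRE1, measured 8.13, 8.12 and 8.13 in untreated CD103+CD11b- cells, 8.03, 7.86 and 7.81 in CD103+CD11b+ and 7.95, 8.03 and 8.23 in CD103-CD11b+ cells. After DSS it measured 8.22, 7.99 and 8.11, then 7.75, 7.76 and 7.66, then 7.81, 7.91 and 7.70. DSS CD103+CD11b- arrays all lay above the other DSS arrays, by 0.38 ± 0.12 over CD103+CD11b+ (adjusted p 0.0670) and 0.30 ± 0.12 over CD103-CD11b+ cells (adjusted p 0.151). Neither passed the threshold. In both conditions, the subset with the lowest Ern1 had the highest mean of Xbp1. In untreated mice the Xbp1 means were 8.13 in CD103+CD11b- and 8.07 in CD103-CD11b+ cells, and those arrays overlapped.

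Ddit3 (CHOP), the factor tied to cell death under lasting ER stress, ran from 6.88 to 7.81. It measured 7.81, 7.42 and 7.26 in untreated CD103+CD11b+ cells and 6.88, 6.997 and 7.19 in CD103+CD11b- cells, a difference, CD103+CD11b- minus CD103+CD11b+, of -0.47 without overlap but with an adjusted p of 0.0919.

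**Figure D3:**
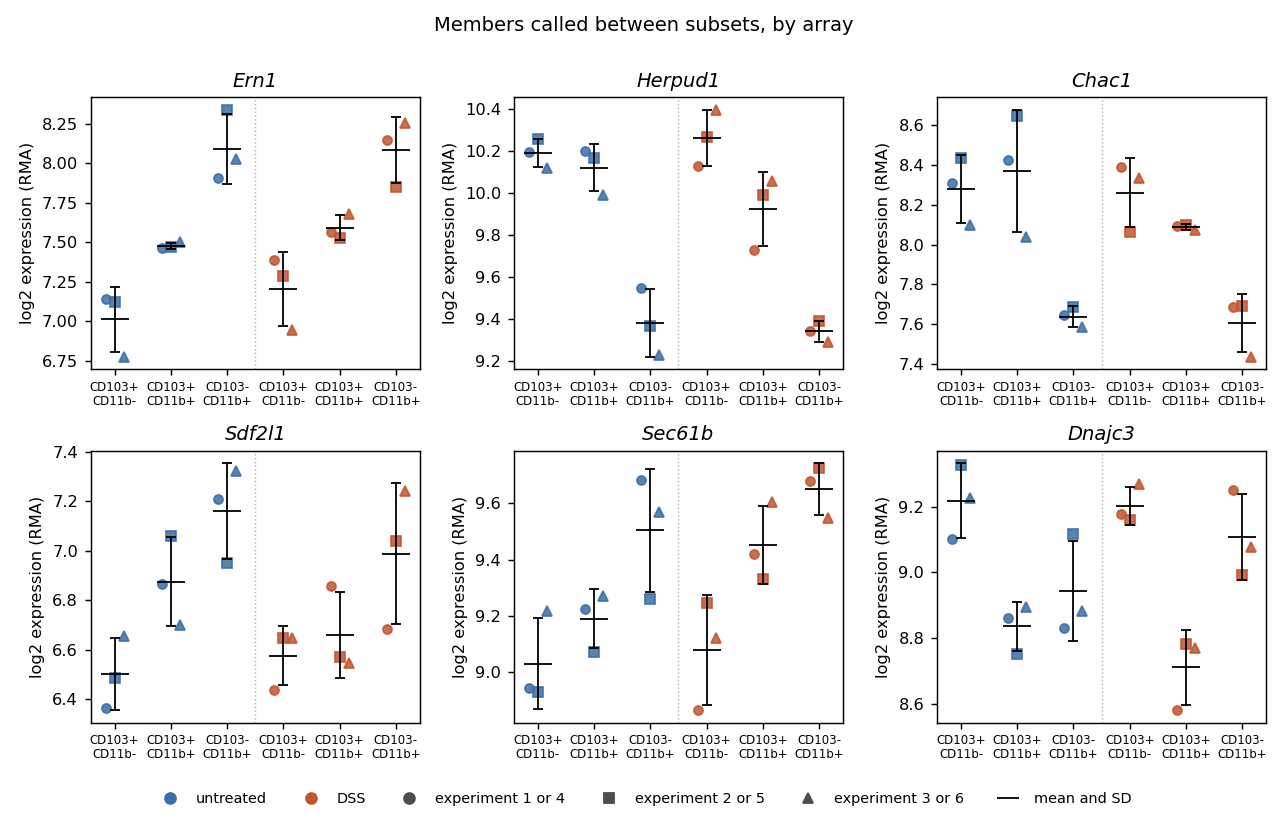
Each panel is a gene on its own vertical axis of log2 expression; points are arrays, shape gives the experiment, colour the condition, and bars show the mean and SD of 3 arrays per group. Ern1 climbs and Herpud1 and Chac1 drop towards CD103-CD11b+ cells in both conditions, with the Ern1 groups of a condition not overlapping.

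Among the integrated stress response targets, Chac1, which breaks down glutathione and is induced through ATF4, differed between subsets. It measured 8.31, 8.43 and 8.10 in untreated CD103+CD11b- cells and 8.42, 8.65 and 8.04 in CD103+CD11b+ cells, against 7.65, 7.69 and 7.58 in CD103-CD11b+ cells. After DSS it measured 8.39, 8.06 and 8.33, then 8.09, 8.10 and 8.07, then 7.69, 7.69 and 7.44. Both CD103+ subsets lay above CD103-CD11b+ cells in every array of both conditions.

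Chac1 was 0.64 ± 0.15 higher in untreated CD103+CD11b- than CD103-CD11b+ cells (adjusted p 0.0071) and 0.66 ± 0.15 higher after DSS (adjusted p 0.0065). It was 0.73 ± 0.15 higher in untreated CD103+CD11b+ than CD103-CD11b+ cells (adjusted p 0.0075; 0.103 in a fit of those groups alone), and 0.48 ± 0.15 higher after DSS, which was not called (adjusted p 0.144).

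Asns, Trib3 and Ppp1r15a were not called. Asns, which makes asparagine, was highest in untreated CD103+CD11b+ cells at 8.12, 8.40 and 7.83, against 7.23, 7.63 and 7.66 in CD103+CD11b- and 7.61, 7.52 and 7.77 in CD103-CD11b+ cells. The difference of -0.61 ± 0.19, CD103+CD11b- minus CD103+CD11b+, had an adjusted p of 0.0591, and of 0.0290 with the experiment as a block. Trib3, a pseudokinase that restrains ATF4, measured 6.93, 6.32 and 6.17 in untreated CD103+CD11b+ cells, with no array of the other untreated subsets above 6.16. Its difference from CD103-CD11b+ cells was 0.59 ± 0.21 (adjusted p 0.135). Ppp1r15a (GADD34), the phosphatase subunit that restores translation, ran from 8.42 to 9.18, the top value being 1 untreated CD103-CD11b+ array of experiment 2.

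Among genes of ER-associated degradation, which pull misfolded proteins out to the proteasome, Herpud1 was called in 4 comparisons. This membrane protein supports the ubiquitin ligase complex and is induced strongly by ER stress. It measured 10.20, 10.26 and 10.12 in untreated CD103+CD11b- cells, 10.20, 10.17 and 9.99 in CD103+CD11b+ cells and 9.55, 9.37 and 9.23 in CD103-CD11b+ cells. After DSS the values were 10.13, 10.27 and 10.40, then 9.73, 9.99 and 10.06, then 9.34, 9.39 and 9.29. As with Chac1, every CD103+ array lay above every CD103-CD11b+ array.

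Herpud1 was 0.81 ± 0.13 higher in CD103+CD11b- than CD103-CD11b+ cells untreated (adjusted p 0.00018) and 0.92 ± 0.13 higher after DSS (adjusted p 4.7e-05). It was 0.74 ± 0.13 higher in CD103+CD11b+ than CD103-CD11b+ cells untreated (adjusted p 0.0019; 0.0612 in a fit of those groups alone) and 0.58 ± 0.13 higher after DSS (adjusted p 0.0217). The last call was lost in a fit of those groups alone (adjusted p 0.0703), without CD103+CD11b+ of experiment 5 or 6, and without CD103-CD11b+ of experiment 4 or 6 (adjusted p 0.0782 to 0.117). Summed macrophage markers ran the other way at 1 end, being highest in CD103-CD11b+ cells of both conditions, where Herpud1 and Chac1 were lowest. The sums were 42.5 to 44.5 in untreated CD103+CD11b- arrays and 48.3 to 49.5 in CD103+CD11b+ arrays. In the same order, mean Herpud1 was 10.19 and 10.12, and mean Chac1 was 8.28 and 8.37. The part of these markers in either result was not tested.

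The other 8 degradation genes were not called. Edem1, a lectin that marks mannose-trimmed proteins, was lowest in untreated CD103+CD11b- cells at 7.54, 7.65 and 7.89, with differences of -0.38 ± 0.12 from CD103+CD11b+ (adjusted p 0.0696) and -0.34 ± 0.12 from CD103-CD11b+ cells (adjusted p 0.0984). Its relatives Edem2 and Edem3 differed between subsets by at most 0.27 and 0.22. The ligase Syvn1 (HRD1) and its partner Sel1l differed by at most 0.15 and 0.30. The channel proteins Derl1, Derl2 and Derl3 differed by at most 0.25, 0.40 and 0.38. Derl3, which secretory cells express, ran from 4.88 to 6.06.

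Of the luminal chaperones, Hspa5 (BiP), the main ER chaperone and the classic readout of the response, was level in all groups. It measured 10.85, 10.78 and 10.78 in untreated CD103+CD11b- cells, 11.05, 10.97 and 10.84 in CD103+CD11b+ and 10.88, 11.09 and 10.83 in CD103-CD11b+ cells. After DSS it measured 10.82, 10.81 and 10.72, then 10.70, 10.88 and 10.75, then 10.83, 10.91 and 10.92. All 18 values lay within 0.39, and no subset difference exceeded 0.15.

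The chaperones that work beside it were not called either. Hsp90b1 (GRP94) differed by at most 0.22, Hyou1, the nucleotide exchange factor of BiP, by 0.19, and the J-domain protein Dnajb11 by 0.25. The secreted ER-stress proteins Manf and Creld2 differed by at most 0.16 and 0.21. Dnajb9, a J-domain protein that holds IRE1 inactive, spread more within groups: untreated CD103-CD11b+ arrays measured 8.26, 8.996 and 7.47. The lectin chaperones Calr and Canx, which hold glycoproteins while they fold, differed by at most 0.13 and 0.18.

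Sdf2l1, a partner of BiP that keeps folding clients soluble, was lower in CD103+CD11b- cells. In untreated mice it measured 6.36, 6.49 and 6.65 there, 6.87, 7.06 and 6.70 in CD103+CD11b+ cells, and 7.21, 6.95 and 7.33 in CD103-CD11b+ cells. The outer groups did not overlap, and the difference was -0.66 ± 0.16 (adjusted p 0.0088). After DSS the CD103+CD11b- arrays, at 6.44, 6.65 and 6.65, again lay below CD103-CD11b+ arrays at 6.68, 7.04 and 7.24, with a difference of -0.41 ± 0.16 that was not called (adjusted p 0.135). CD103+CD11b+ arrays after DSS were at 6.86, 6.57 and 6.55.

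Dnajc3 (p58IPK), which brings clients to BiP, was higher in CD103+CD11b- than CD103+CD11b+ cells. After DSS it measured 9.18, 9.16 and 9.27 against 8.58, 8.78 and 8.77, and CD103-CD11b+ cells were at 9.25, 8.99 and 9.08. The difference between the first pair was 0.49 ± 0.12 (adjusted p 0.0170), and the call was lost without CD103+CD11b- of experiment 4 or 6 or CD103+CD11b+ of experiment 4 (adjusted p 0.0505 to 0.101). In untreated mice the values were 9.10, 9.33 and 9.23 against 8.86, 8.75 and 8.90, a difference of 0.38 ± 0.12 (adjusted p 0.0685).

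The translocon is the channel through which new proteins enter the ER. Its small subunit Sec61b was lower in CD103+CD11b- than CD103-CD11b+ cells, at 8.95, 8.93 and 9.22 against 9.68, 9.26 and 9.57 untreated, and 8.87, 9.25 and 9.12 against 9.68, 9.72 and 9.55 after DSS. CD103+CD11b+ arrays measured 9.23, 9.07 and 9.27 untreated and 9.42, 9.33 and 9.60 after DSS. The differences were -0.47 ± 0.14 (adjusted p 0.0390) and -0.57 ± 0.14 (adjusted p 0.0128). Both calls were lost when the 3 probe sets of Sec61b were averaged (adjusted p 0.116 and 0.0649). The first was also lost in a fit of the 2 groups alone (0.150) and without CD103+CD11b- of experiment 1 or 2 or CD103-CD11b+ of experiment 1 or 3 (adjusted p 0.107 to 0.169). The second was lost without CD103+CD11b- of experiment 4 or CD103-CD11b+ of experiment 5 (adjusted p 0.0897 and 0.0533). Sec61a1, the pore subunit, differed by at most 0.23 and was not called.

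Of the disulfide isomerases and reductases, Dnajc10, Pdia5 and P4hb were called and Pdia3, Pdia4 and Pdia6 were not. Pdia5 had the largest subset difference of the 38 genes after DSS, 1.35, while Ern1 had the largest in untreated mice, -1.08. Dnajc10 (ERdj5), a J-domain protein that reduces disulfides so that misfolded proteins can be degraded, was higher in CD103+CD11b- cells than in either other subset. It measured 7.63, 7.51 and 7.64 untreated and 7.85, 7.89 and 7.71 after DSS in CD103+CD11b- cells. It measured 6.69, 6.62 and 6.94 untreated and 6.68, 6.95 and 6.91 after DSS in CD103+CD11b+ cells, and 6.93, 6.79 and 6.59 untreated and 7.03, 6.89 and 6.87 after DSS in CD103-CD11b+ cells. The lowest CD103+CD11b- array lay above the highest of the other 12 arrays, 7.03.

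The Dnajc10 differences were 0.83 ± 0.13 from CD103-CD11b+ (adjusted p 0.00017) and 0.85 ± 0.13 from CD103+CD11b+ cells (adjusted p 0.00019) untreated, or 1.77-fold and 1.80-fold. After DSS they were 0.89 ± 0.13 (adjusted p 9.0e-05) and 0.97 ± 0.13 (adjusted p 5.2e-05). None of these 4 calls was lost under any of the 12 alternatives run for each. Dnajc10 and the summed cDC1 markers were both highest in CD103+CD11b- cells, in both conditions. Between the other subsets they did not move together. In untreated CD103+CD11b+ and CD103-CD11b+ arrays the sums were 33.2 to 34.8 and 28.3 to 29.9, with mean Dnajc10 at 6.75 and 6.77. After DSS the sums were 33.9 to 35.8 and 32.4 to 33.1, with mean Dnajc10 at 6.85 and 6.93. The part of these markers was not tested.

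Pdia5, a protein disulfide isomerase known to act on disulfides of ATF6, was high in a single group. In DSS CD103+CD11b- cells it measured 5.32, 5.76 and 5.65. In untreated CD103+CD11b- cells it measured 4.52, 4.40 and 4.44. In CD103+CD11b+ cells it measured 4.28, 4.40 and 4.01 untreated and 4.16, 4.44 and 4.26 after DSS, and in CD103-CD11b+ cells 4.40, 4.12 and 4.15 untreated and 4.20, 4.31 and 4.18 after DSS. The lowest DSS CD103+CD11b- array, 5.32, lay above the highest of the other 15, 4.52. Pdia5 had the lowest mean of the 38 genes over the 18 arrays, 4.50, at percentile 32.2 of the genes tested. The other 15 arrays, at 4.01 to 4.52, lay near the array medians of 3.99 to 4.09. Without detection calls, expression there is uncertain, and the fold values for Pdia5 rest on these low levels.

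After DSS, Pdia5 was 1.35 ± 0.14 higher in CD103+CD11b- than CD103-CD11b+ cells (adjusted p 1.9e-06) and 1.30 ± 0.14 higher than in CD103+CD11b+ cells (adjusted p 6.1e-06), 2.55-fold and 2.45-fold. Both calls held under the 11 alternatives that could test them; the other, the 60th percentile filter, kept Pdia5 only through the 3 DSS CD103+CD11b- arrays. In untreated mice the subset comparisons did not call it.

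P4hb, the founding protein disulfide isomerase, was called between the CD103+ subsets after DSS. It measured 9.75, 9.56 and 9.75 in DSS CD103+CD11b- cells against 9.003, 9.30 and 9.35 in CD103+CD11b+ cells and 9.62, 9.48 and 9.44 in CD103-CD11b+ cells. The difference of 0.47 ± 0.12 between the CD103+ subsets (adjusted p 0.0269) was lost without the same 3 arrays as for Dnajc3 (adjusted p 0.110 to 0.172) and in a fit of the 2 groups alone (adjusted p 0.0816). Untreated arrays measured 9.66, 9.42 and 9.38 against 9.22, 9.23 and 9.15, a difference of 0.28 ± 0.12 (adjusted p 0.216).

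Pdia4 had the largest SD within groups of the 38, 0.50, and its values kept the order of the experiments. It measured 6.29, 6.79 and 5.81 in untreated CD103+CD11b- cells, 6.58, 7.66 and 6.12 in CD103+CD11b+ and 6.72, 7.33 and 6.34 in CD103-CD11b+ cells of experiments 1, 2 and 3. In every subset experiment 2 was highest and experiment 3 lowest. After DSS it measured 6.81, 6.69 and 6.18, then 6.68, 6.67 and 6.24, then 7.49, 7.10 and 6.58, with experiment 6 lowest in every subset.

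Pdia4 was lower in CD103+CD11b- than CD103-CD11b+ cells in all 6 experiments. The differences of -0.50 untreated and -0.50 after DSS had adjusted p of 0.488 and 0.518 without the block and of 0.0321 and 0.0365 with the experiment as a block. The untreated difference of -0.50 from CD103+CD11b+ cells had an adjusted p of 0.487 without and 0.0431 with the block. Pdia3, which folds glycoproteins with Calr and Canx, differed by at most 0.23, and Pdia6 by at most 0.32. Neither was called.

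**Figure D4:**
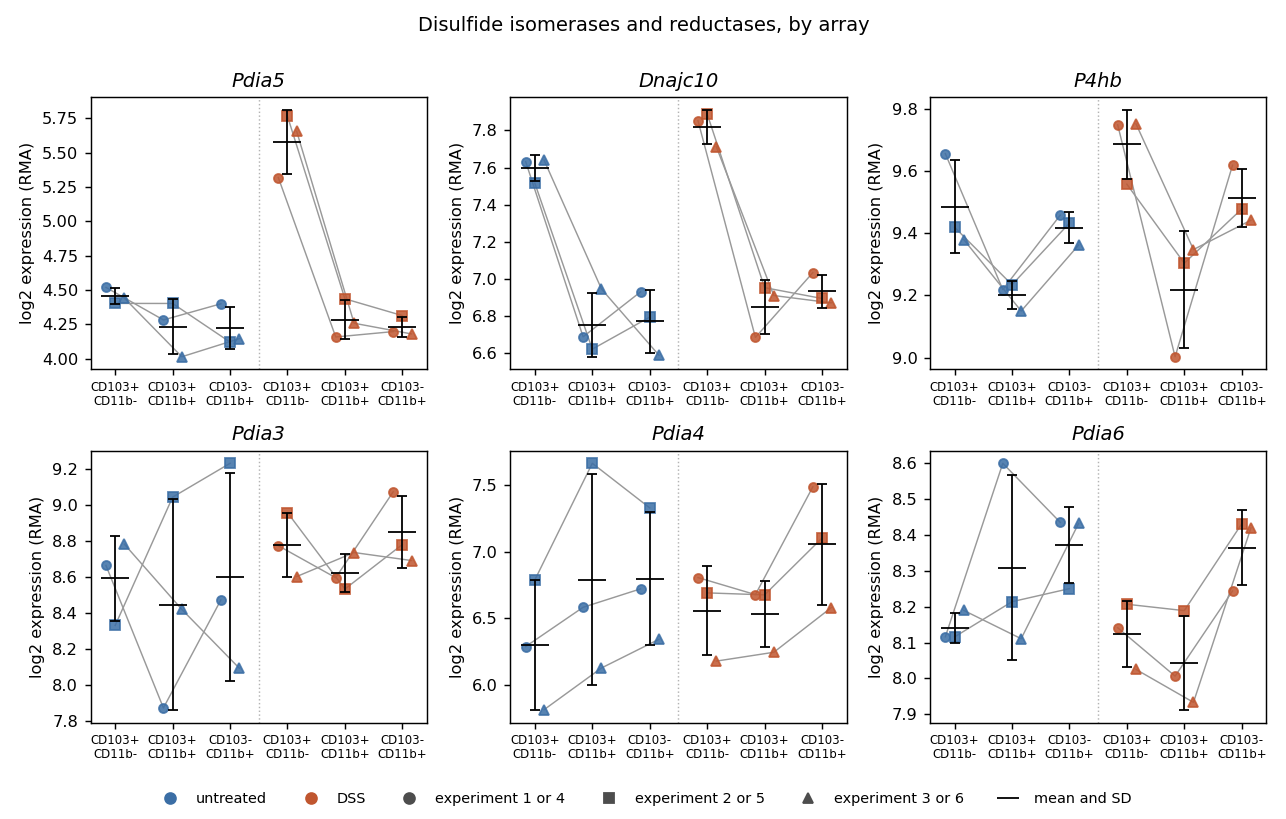
Each panel is a gene on its own vertical axis of log2 expression; points are arrays, grey lines join arrays of the same experiment, colour gives the condition, and bars show the mean and SD of 3 arrays. Pdia5 is high in the 3 DSS CD103+CD11b- arrays alone, Dnajc10 is high in CD103+CD11b- cells of both conditions, and the Pdia4 lines keep the order of the experiments, with experiment 3 or 6 lowest.

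With DSS, 1 of 38 genes was called in CD103+CD11b- cells, which was higher, against 0.129% of all genes, 0.107% higher. In CD103+CD11b+ cells 0 of 38 were called, against 0.0857% of all genes. In CD103-CD11b+ cells 0 of 38 were called, against 0.1% of all genes. At an unadjusted p under 0.05, limma's test gave 1, 1 and 3 of the 38 in the same order, or 2.63%, 2.63% and 7.89%, beside 6.08%, 10.1% and 7.67% of all genes. Median differences of the 38 were 0.06, -0.12 and 0.00, beside 0.02, -0.06 and 0.03 for all genes. These calls compare 3 experiments with 3 others.

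The called gene was Pdia5, 1.13 ± 0.14 higher with DSS in CD103+CD11b- cells (adjusted p 0.0011), or 2.18-fold, with all 3 DSS arrays above all 3 untreated ones. The call held under the same 11 alternatives. Its DSS difference was 0.05 ± 0.14 in CD103+CD11b+ and 0.01 ± 0.14 in CD103-CD11b+ cells. The difference between those changes was 1.07 ± 0.20 against CD103+CD11b+ cells (adjusted p 0.168) and 1.12 ± 0.20 against CD103-CD11b+ cells (adjusted p 0.316), so the test over all genes did not call it.

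No gene was called in any of the 3 tests of a difference between DSS changes: 0 of 38 members and 0.0% of all genes, with 1 of the 38 (2.63%) in each at an unadjusted p under 0.05, beside 3.64% to 5.56% of all genes. Averaged over the 3 subsets of each experiment, 0 of 38 were called with DSS against 0.186% of all genes, and 1 (2.63%) had an unadjusted p under 0.05, beside 10.5% of all genes. That was Pdia5 at 0.40 ± 0.10 (adjusted p 0.212; 0.0294 with the experiment as a random block over all 18 arrays).

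Markers of other cell types moved with DSS as well. The 6 neutrophil markers tested of 8 summed to 25.6 to 29.6 in untreated and 29.4 to 35.8 in DSS CD103+CD11b- arrays. The ranges were 26.8 to 29.0 and 30.1 to 36.9 in CD103+CD11b+ cells, and 28.2 to 31.1 and 31.0 to 37.8 in CD103-CD11b+ cells, where Pdia5 stayed between 4.01 and 4.44. Of the 6, Retnlg was called in CD103+CD11b- cells at 1.33 ± 0.25 (adjusted p 0.0413), in CD103+CD11b+ cells at 1.44 ± 0.25 (adjusted p 0.0282) and over the 3 subsets at 1.34 ± 0.18 (adjusted p 0.0276). In CD103+CD11b- cells the 5 cDC2 markers summed to 26.9 to 28.7 untreated and 29.4 to 30.5 after DSS, without overlap; their median difference was 0.83, and 1 was called, Sirpa at 0.83 ± 0.14 (adjusted p 0.0215). The 7 macrophage markers summed to 42.5 to 44.5 and 46.3 to 46.6 there, also without overlap, with a median difference of 0.43 and 0 called by limma. In DSS CD103+CD11b+ and CD103-CD11b+ arrays, where Pdia5 was low, both sums were higher than in DSS CD103+CD11b- arrays, at 39.2 to 42.8 for cDC2 and 48.3 to 57.2 for macrophage markers. The part of these markers in the Pdia5 result was not tested.

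The other 37 genes were not called between DSS and untreated arrays. Their differences ran from -0.15 to 0.26 in CD103+CD11b-, from -0.47 to 0.26 in CD103+CD11b+ and from -0.28 to 0.33 in CD103-CD11b+ cells. The ends of these ranges were Hyou1 and Pdia4, Derl3 and Sec61b, and Ppp1r15a and Edem2. Hspa5 differed by -0.02 ± 0.11, -0.17 ± 0.11 and -0.05 ± 0.11 in the same order of subsets, and Xbp1 by -0.02, -0.18 and -0.26.

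**Figure D5:**
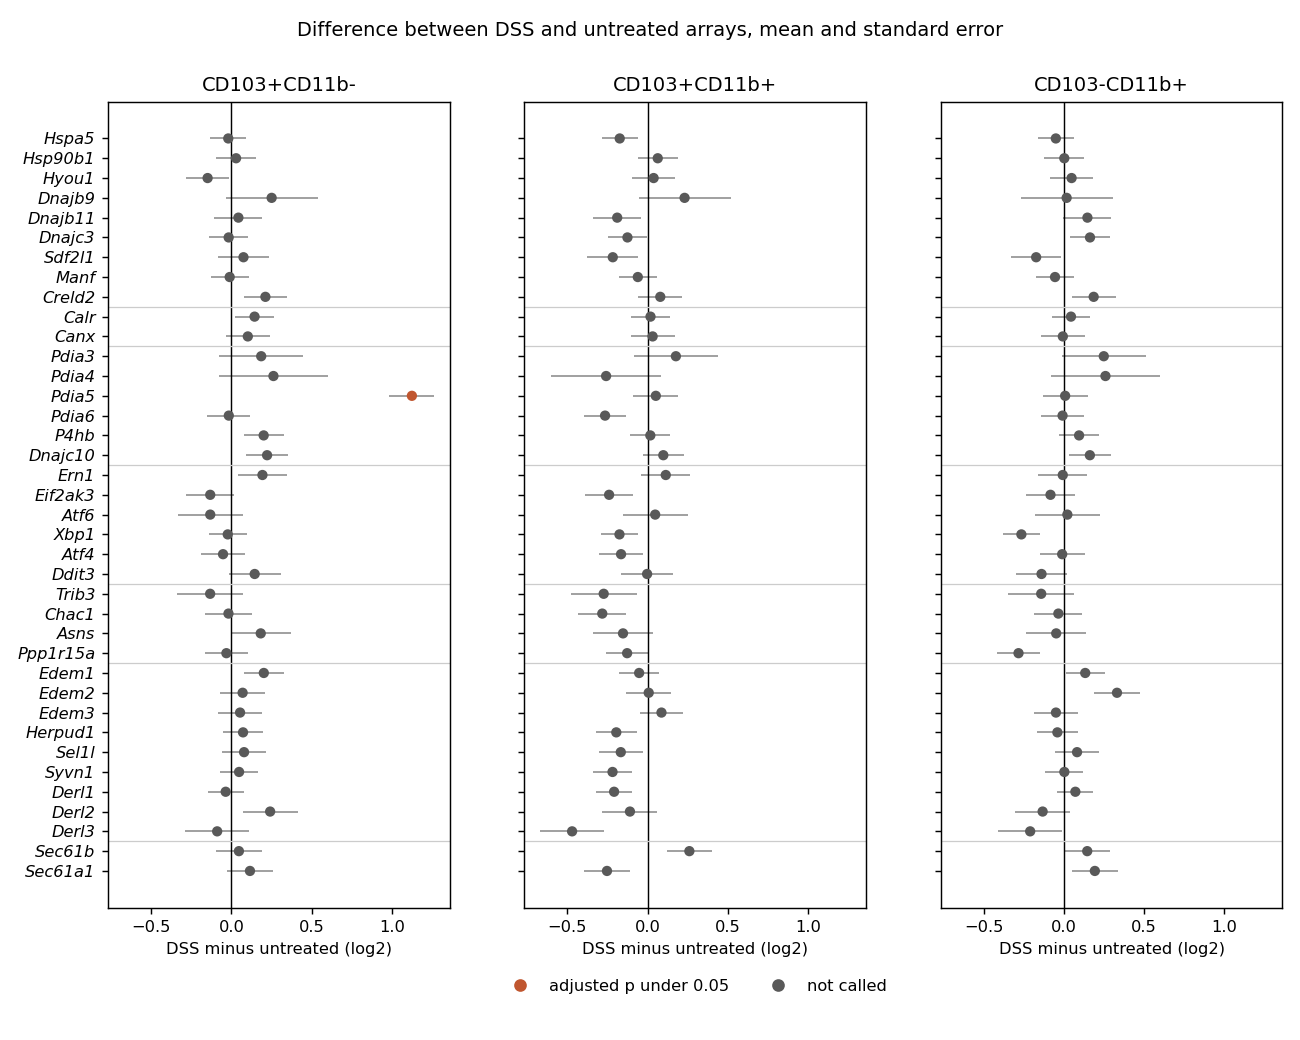
Each point is a gene's difference in log2 expression between DSS and untreated arrays in the subset named above the panel, with bars of 1 standard error from the fit; genes are ordered by role. Pdia5 in CD103+CD11b- cells, at 1.13, is the only called point, and the other 37 lie between -0.47 and 0.33 over the 3 panels.

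Other genes of the same pathways were taken from lists of the wider ER machinery. Of 10 genes of the oligosaccharyltransferase, which adds sugar chains to new proteins, 0 were called by limma in any comparison. Of 35 other folding enzymes tested, 0 were higher and 1 lower (2.86%) in untreated CD103+CD11b- over CD103-CD11b+ cells, beside 5.01% and 5.32% of all genes. The lower gene was the cargo receptor partner Mcfd2 at -0.55 ± 0.17. After DSS the sulfhydryl oxidase Qsox1 was the only one called, again 2.86% beside 4.19% and 3.56% of all genes called higher. It was higher in CD103+CD11b- cells by 0.51 ± 0.13 over CD103-CD11b+ and 0.58 ± 0.13 over CD103+CD11b+ cells.

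Of 32 other degradation and translocon genes tested, 2 were higher and 2 lower in untreated CD103+CD11b- over CD103-CD11b+ cells, 6.25% each way, near the 5.01% and 5.32% of all genes. Selenos, a membrane selenoprotein of the degradation complex, was 1.05 ± 0.20 higher (adjusted p 0.0011) and the mannosidase Man1b1 0.64 ± 0.17 higher. The ubiquitin enzymes Ube2g2 and Rnf5 were at -0.72 ± 0.19 and -0.57 ± 0.18. Selenos was also higher in CD103+CD11b- than CD103+CD11b+ cells, by 0.70 ± 0.20 untreated and 1.21 ± 0.20 after DSS, and by 1.06 ± 0.20 over CD103-CD11b+ cells after DSS. Os9, a lectin of the ligase complex, was -0.49 ± 0.14 in untreated CD103+CD11b- minus CD103+CD11b+ cells, and Man1b1 was 0.72 ± 0.17 higher in untreated CD103+CD11b+ than CD103-CD11b+ cells.

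The list of other integrated stress response and unfolded protein response genes, 36 tested, was tested in the same way. In untreated CD103+CD11b+ relative to CD103-CD11b+ cells 6 were higher and 1 lower, beside 2.36% and 1.75% of all genes. They were Sesn2, an ATF4 target (0.88 ± 0.19), the serine pathway enzyme Shmt2 (0.85 ± 0.18), the tRNA synthetases Gars (0.72 ± 0.15), Mars1 (0.61 ± 0.17) and Eprs (0.50 ± 0.13), and the amino acid transporter Slc7a5 (0.53 ± 0.14). The factor Cebpb was at -0.63 ± 0.15. The list's median was 0.10 beside 0.07 for all genes.

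In untreated CD103+CD11b- over CD103-CD11b+ cells, 6 of the 36 were higher and 2 lower, 16.7% and 5.56% beside 5.01% and 5.32% of all genes. Gars (0.75 ± 0.15), Psat1 of serine synthesis (0.65 ± 0.17), Sesn2 (0.65 ± 0.19), the membrane-bound factor Creb3 (0.64 ± 0.16), Nars (0.42 ± 0.11) and Ppp1r15b (0.37 ± 0.11) were higher, and Ddit4 (-0.997 ± 0.193) and Cebpb (-0.77 ± 0.15) lower. The list's median was 0.14 beside 0.01. After DSS 4 were higher and 3 lower, 11.1% and 8.33% beside 4.19% and 4.34% of all genes: Sesn2 (0.72 ± 0.19), Atf3 (0.68 ± 0.14), Gars (0.63 ± 0.15) and Ppp1r15b (0.46 ± 0.11), against Ddit4 (-0.93 ± 0.19), the cystine transporter Slc7a11 (-0.69 ± 0.17) and Cebpb (-0.65 ± 0.15). The median then was 0.03 beside -0.01.

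Comparing CD103+CD11b- with CD103+CD11b+ cells, 0 of the 36 were higher and 2 lower (5.56%) in untreated mice, beside 2.76% and 4.09% of all genes: Ddit4 at -0.73 ± 0.19 and Traf2 at -0.65 ± 0.18. After DSS 4 were higher (11.1%) and 0 lower, beside 3.56% and 2.39%: Atf3 (0.75 ± 0.14), Creb3 (0.70 ± 0.16), Ppp1r15b (0.53 ± 0.11) and Bcl2l11 (0.48 ± 0.13). None of these 4 lists had a gene called with DSS in any subset.

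Markers of secretory cells, which carry much ER, were present in every group. Jchain, of plasma cells, averaged 9.58 to 9.72 across the 6 groups. The 11 tested of 12 plasma and B cell markers summed to 75.3 to 77.0 in untreated CD103+CD11b-, 78.4 to 80.6 in CD103+CD11b+ and 79.3 to 79.5 in CD103-CD11b+ arrays, and to 72.6 to 74.3, 75.3 to 76.9 and 76.8 to 79.1 after DSS. Irf4, on this list, is also a cDC2 marker and was called lower in CD103+CD11b- cells; without it the other 10 summed to 68.6 to 70.3, 70.9 to 72.7 and 71.8 to 72.2 untreated. These sums were lowest in CD103+CD11b- cells with and without Irf4, while Jchain was level. Many members also had their lowest untreated mean in CD103+CD11b- cells, among them Sdf2l1, Sec61b, Edem1, Ern1, Ddit3, Hspa5 and Pdia6. Other members had their highest untreated mean in these cells, among them Herpud1, Dnajc10, Dnajc3, P4hb and Xbp1. Of the 38 genes, 26 were lower and 12 higher in untreated CD103+CD11b- than CD103-CD11b+ cells, beside 51.2% of all genes higher. Against untreated CD103+CD11b+ cells, 24 were lower and 14 higher, beside 39.5% of all genes higher. The 11 tested of 12 epithelial and goblet cell markers, among them the secreted proteins Muc2, Agr2 and Tff3, summed to 80.9 to 87.3, 86.1 to 90.9 and 85.2 to 86.2 untreated, and to 77.9 to 81.3, 82.3 to 83.5 and 77.2 to 88.8 after DSS. Their median difference with DSS was -0.40, -0.47 and -0.25 in the same order of subsets, with 0 called by limma. Sums of 6 plasmacytoid dendritic cell markers were also lowest in untreated CD103+CD11b- arrays, at 32.2 to 32.6 against 34.8 to 38.5 in the other untreated arrays. Those of 7 T, NK and innate lymphoid cell markers were 41.4 to 42.2 against 43.2 to 45.7. The part of any of these lists in the values of the 38 genes was not tested. Array values are never 0, so no marker was at 0.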

How the data were processed

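Gene expression was measured on 18 Affymetrix arrays. The deposited table holds log2 values from RMA, per the submitters' processing notes, whose version was not given in the sources used here. RMA corrects background and normalizes by quantiles, so a shift shared by most genes can be hidden in part or in full. The deposited values did not have exactly the same distribution in every array. The mean of all genes tested was 5.62 to 5.64 in untreated CD103+CD11b- arrays and 5.67 to 5.72 in untreated CD103+CD11b+ arrays. Array medians lay between 3.99 and 4.09. The values were used as deposited, and the number of arrays limits the precision.

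Of 34760 probe sets, 21640 carried 1 gene symbol, 1321 several and 11799 none; those with 1 symbol were used, and the probe set with the highest mean stood for its gene. Genes had to exceed the 40th percentile of all values, 3.51, in at least 3 arrays. limma 3.58.1 in R 4.3.3 (lmFit, eBayes) fitted 6 group means to all 18 arrays, with two-sided tests and Benjamini-Hochberg adjustment over 14003 genes, after a check on simulated data. The comparison of DSS over all subsets used experiment means. Start-site windows came from RefSeq tables of GRCm38.p6, which also served for gene names.

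The experiment number in the titles pairs the subsets of a condition. Deviations from the group means correlated with a median of 0.25 between untreated arrays of the same experiment, with 8 of 9 pairs above 0.1, and of 0.18 between DSS arrays, with 9 of 9; other pairs had medians of -0.12 and -0.13. Alternatives were a repeated quantile normalization, the mean of a gene's probe sets, no filter, a 60th percentile filter, only the groups compared, the experiment as a block, each array left out in turn, and, for the mean over genes, a median.

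The 38 genes, their roles and the other gene lists were chosen with earlier results of these data known. Every member is named; members without a call are given by range, and called genes of the other ER lists are named. No protein sequences were used here.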

Additional observations from a re-analysis of the deposited data

How the results depend on the processing

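Of 22 calls, 14 were kept under every alternative run and 8 were lost under at least 1, among them both Sec61b calls; none changed direction. The 60th percentile filter says nothing of the 3 Pdia5 calls, since that gene passed it only through DSS CD103+CD11b- arrays. Counts of called genes stayed within 1.5 times of the reported count in 155 of 170 alternatives. The 170 include comparisons with a reported count of 0, where a count that stayed 0 was taken as unchanged. Such comparisons had no call to lose, so the 155 say less of stability than they seem to. The exceptions were these. Of untreated cells, CD103+CD11b- against CD103+CD11b+ had a count of 1 that became 2 with repeated quantile normalization, 4 with the 60th percentile filter and 3 with the experiment as a replicate block, and lay between 1 and 3 on leaving out an array. For CD103+CD11b+ against CD103-CD11b+ cells it became 0 in a fit of those groups alone. After DSS the same pair gave 0 in a fit of those groups alone and 0 to 1 on leaving out an array, and CD103+CD11b- against CD103+CD11b+ cells gave 2 to 4. DSS over the 3 subsets gave 1 with the experiment as a random replicate block. The block changed no other call than those of Pdia4, Asns and Pdia5 given above. The difference in the mean over genes moved by more than the spread between arrays in 6 of 100 alternatives. Repeated quantile normalization gave -0.0332 for untreated CD103+CD11b- minus CD103+CD11b+, -0.0697 for untreated CD103+CD11b+ minus CD103-CD11b+, and -0.0222 and -0.0557 for DSS in CD103+CD11b+ and CD103-CD11b+ cells. The median over genes gave -0.0720 and -0.0043 for DSS CD103+CD11b- minus CD103-CD11b+ and minus CD103+CD11b+. The cause was not tested. Background correction could not be varied, the arrays give no detection calls, and 3 arrays a group limit every count.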
